A study of Mus musculus with 12 samples.

Results

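Transforming growth factor β (TGF-β) and bone morphogenetic protein (BMP) signalling was described in BV2 microglia through 10 genes: the ligand Tgfb1, the secreted BMP modulator Bmper, the receptors Tgfbr1 and Tgfbr2, the signal transducer Smad3, the inhibitory Smads Smad6 and Smad7, and the target genes Id1, Id2 and Id3. They were taken by gene name from the 21834 protein-coding genes of a table of read counts, and all 10 were found. They had been picked with their levels in the 4 groups known, so their differences between groups stand as a description, with no test. BV2 is an immortalized mouse microglial line. The cells carried a lentiviral control shRNA (shCtrl) or 1 shRNA against Anxa2 (shAnxa2), were selected with puromycin and kept as stable lines. Each line was left untreated (CTRL) or went through 4 h of oxygen-glucose deprivation and 12 h of reoxygenation (OGD/R) as the labels give it, with 3 libraries in each of the 4 groups. With 1 line for each shRNA, the knockdown and any other difference between the lines cannot be told apart. The study calls the 3 libraries of a group biological replicates, and no batch is named.

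TGF-β binds a pair of type II receptors (Tgfbr2), which activate type I receptors (Tgfbr1), and these phosphorylate Smad2 and Smad3. BMPs use other type I receptors and signal through Smad1, Smad5 and Smad9, and both branches share Smad4. Smad6 and Smad7 are induced by the pathway and restrain it, and Id genes are classic targets of BMP signalling that encode partners lacking a DNA-binding domain, which hold E proteins away from DNA. TGF-β is known to maintain microglia in the healthy brain, and TGF-β1 is a major product of microglia and macrophages after ischemic injury.

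Total counts ran from 19521877 to 27288843 per library, with a median of 24531756.5. Levels are given below as counts per 1000000 (CPM), scaled between libraries by TMM factors. Anxa2 stood at 164.5 to 176.7 CPM in untreated shCtrl cells, 250.9 to 294.6 CPM in shCtrl cells after OGD/R, 35.0 to 44.4 CPM in untreated shAnxa2 cells and 18.2 to 20.6 CPM in shAnxa2 cells after OGD/R, so each library matched the line in its title. After OGD/R, Anxa2 rose in shCtrl cells (log2 fold change 0.70, edgeR adjusted p = 1.21e-09) and fell in shAnxa2 cells (log2 fold change -1.04, edgeR adjusted p = 3.05e-10). No targeted gene checks the OGD/R label, which is used as given. A second label of each library, which names a wild-type or knockdown state, follows the treatment and not the title, and the titles were used. All 10 microglial markers were measured, with summed levels of 2033 to 2377 CPM over the 12 libraries, while 0 of 5 neuronal, 0 of 5 fibroblast and pericyte, 1 of 5 astrocyte and 2 of 5 oligodendrocyte markers passed the filter on low counts. The summed astrocyte markers were at most 0.970 CPM, and the summed oligodendrocyte markers, mostly Mbp, ran from 4.24 to 6.71 CPM. Over all 11626 genes that passed this filter (at least 0.5 CPM in at least 3 libraries), libraries of a group lay 0.252 to 0.28 apart (distance in log2(CPM + 0.1), root mean square over genes). The nearest groups were untreated shCtrl and OGD/R-treated shAnxa2 cells, 0.416 apart, and OGD/R-treated shCtrl and untreated shAnxa2 cells, 0.453 apart. Untreated and treated cells lay 0.584 apart in the shCtrl line and 0.496 apart in the shAnxa2 line, so a group resembled the oppositely treated group of the other line more than its own line's other group. Whether the treatment labels of 1 line were exchanged was not tested. An exchange is possible, and it would turn every OGD/R change of that line and set unlike treatments against each other in the comparisons between lines. Log2 fold changes and their standard errors (SE) come from 1 edgeR quasi-likelihood model over the 12 libraries. Genes other than the 10 passed the test when the Benjamini-Hochberg adjusted p over the 11626 genes was under 0.05.

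After OGD/R, Bmper, Id1, Id3, Smad7, Tgfb1, Tgfbr1 and Smad6 were lower than before in shCtrl cells and higher than before in shAnxa2 cells, while Smad3 and Tgfbr2 were higher in shCtrl cells and lower in shAnxa2 cells. Id2 was lower after OGD/R in both lines, by little in shAnxa2 cells. These are directions of the fitted changes. The libraries before and after OGD/R overlapped for Smad3, Smad6 and Id2 in shAnxa2 cells and for Tgfbr2 in shCtrl cells. Among the 10 genes, the libraries before and after OGD/R did not overlap for 9 genes in shCtrl cells (1 higher, 8 lower), where 68.0% of all genes tested did not overlap (34.7% higher, 33.3% lower). They did not overlap for 7 genes in shAnxa2 cells (6 higher, 1 lower), with 58.9% of all genes (30.1% higher, 28.8% lower). Between the lines, 7 of the 10 genes did not overlap without OGD/R, all lower in shAnxa2 cells (63.6% of all genes did not overlap, 31.6% higher and 32.0% lower), and 8 did not overlap after OGD/R (6 higher and 2 lower in shAnxa2 cells, with 69.9% of all genes, 34.6% higher and 35.3% lower). Because the genes were chosen on these contrasts, nothing is read from these counts. In bulk RNA such as this, fewer cells that express a gene and less of its RNA per cell cannot be told apart.

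**Figure D1:**
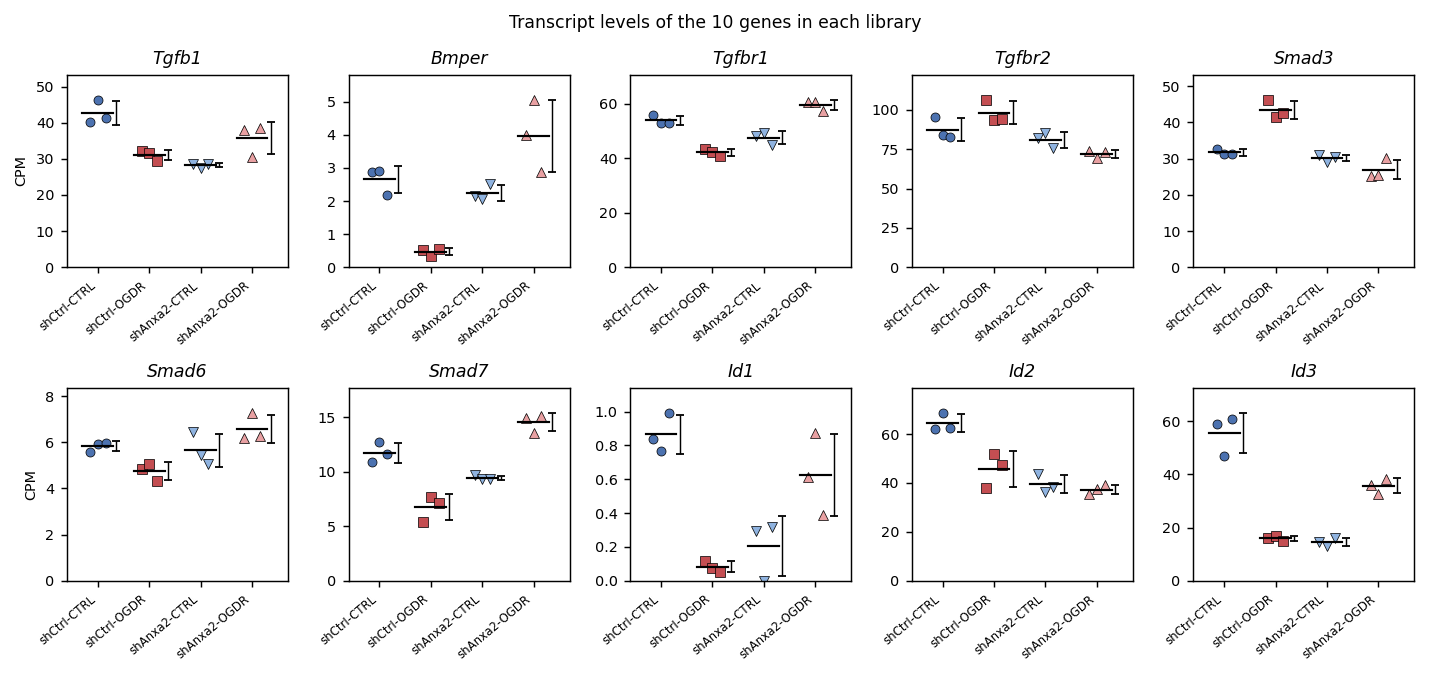
Level of each of the 10 genes (vertical axis, CPM from 0) in the 12 libraries by group (horizontal axis), with points for libraries, lines for the means of 3 libraries and bars for ± SD. Id3 is high in untreated shCtrl cells and intermediate in OGD/R-treated shAnxa2 cells, and Bmper is low in OGD/R-treated shCtrl cells alone.

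**Figure D2:**
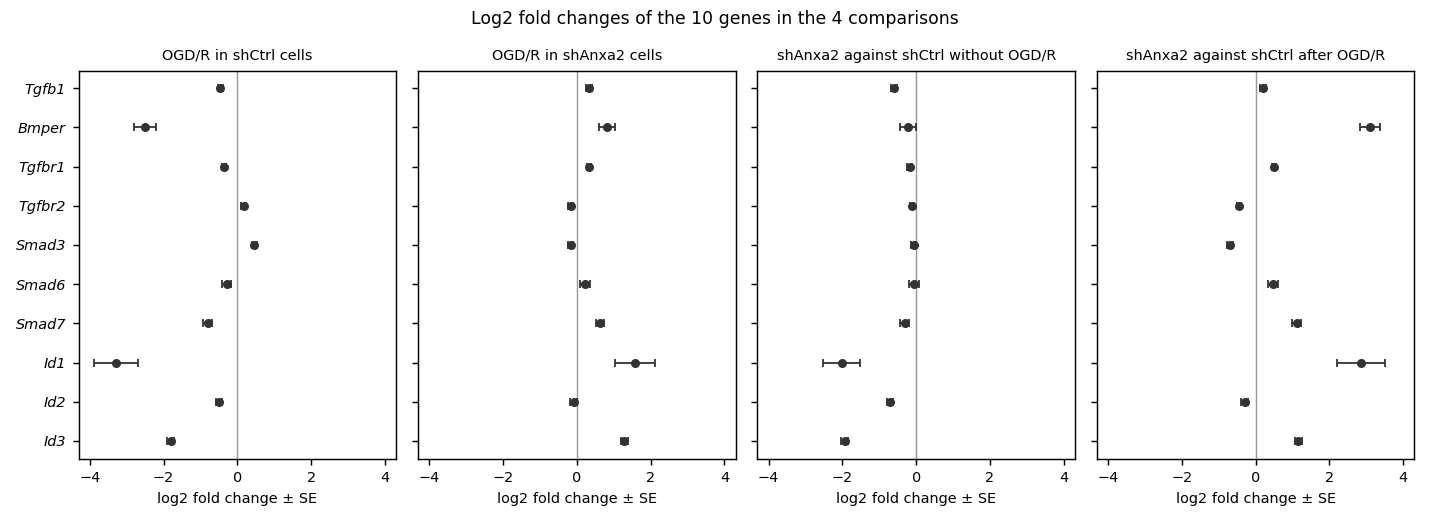
Log2 fold changes of the 10 genes (horizontal axis) with their standard errors (bars) in the 4 comparisons, from the edgeR model over 12 libraries. In shCtrl cells Id1, Bmper and Id3 lie farthest below 0 after OGD/R, and in shAnxa2 cells the same 3 genes lie farthest above 0.

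Tgfb1 encodes TGF-β1, which cells secrete in a latent form. Tgfb1 (ENSMUSG00000002603, chr7:25386427-25404502, plus strand, mm39) gave 40.2, 46.4 and 41.4 CPM in untreated shCtrl cells and 32.1, 31.6 and 29.4 CPM after OGD/R. In shAnxa2 cells Tgfb1 gave 28.5, 27.5 and 28.5 CPM without OGD/R and 38.1, 30.6 and 38.6 CPM after it. The untreated shCtrl libraries were the highest and the untreated shAnxa2 libraries the lowest, and the OGD/R-treated groups lay between these and overlapped each other. The log2 fold change of Tgfb1 after OGD/R was -0.46 (SE 0.0785) in shCtrl cells and 0.34 (SE 0.0817) in shAnxa2 cells. After OGD/R the lines differed by 0.20 (SE 0.0805) on the log2 scale, and by 0.13 without OGD/R-treated shAnxa2 replicate 3. Without OGD/R the level in shAnxa2 cells was 1.51-fold lower than in shCtrl cells (log2 fold change -0.60, SE 0.0797).

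Tgfb1 was the most abundant ligand of the pathway in untreated shCtrl cells per length of exon, at 8.46 ± 0.649 CPM per kb (SD, n = 3). In OGD/R-treated shAnxa2 cells Tgfb1 was also above Gdf15 (7.09 ± 0.892 against 5.26 ± 0.463 CPM per kb), but Gdf15 was above it in OGD/R-treated shCtrl cells (8.17 ± 0.819 against 6.15 ± 0.287) and in untreated shAnxa2 cells (10.9 ± 1.65 against 5.59 ± 0.110). In CPM the mean of Tgfb1 was above that of Gdf15 in all 4 groups, so this order depends on the exon lengths (5042 bases for Tgfb1, 1852 for Gdf15). Of the 33 ligand genes listed, 28 did not pass the filter and 13 had no count in any library. All 10 BMP ligand genes listed were among those that did not pass. The highest count of a BMP ligand in any library was 16, for Bmp8b, and the other 9 reached at most 3. Gdf15, a stress-induced member of the superfamily, rose after OGD/R in shCtrl cells, from 5.03 ± 0.127 to 15.1 ± 1.52 CPM (SD, n = 3, log2 fold change 1.59, edgeR adjusted p = 5.05e-11). Gdf15 fell by 1.05 on the log2 scale after OGD/R in shAnxa2 cells, from 20.1 ± 3.06 to 9.74 ± 0.857 CPM (edgeR adjusted p = 3.41e-08). Gdf9, an oocyte growth factor found here at a low level, had a log2 fold change of 1.34 (SE 0.548) in shCtrl cells. The change of Gdf9 passed (edgeR adjusted p = 0.0364), but not without untreated shCtrl replicate 1 (adjusted p = 0.0732) or 3 (0.115) or treated shCtrl replicate 2 (0.30). Nodal and Amh passed in none of the 4 comparisons.

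Of 5 tested genes for ligand latency and processing, all 5 differed between the untreated lines (59.2% of all genes did) and 4 changed after OGD/R in shCtrl cells (63.4% of all genes did). Furin and Nrros moved in opposite directions in both lines. Furin, a protease that cleaves the TGF-β precursor, rose from 95.2 ± 4.04 to 274.6 ± 2.46 CPM in shCtrl cells (log2 fold change 1.53, edgeR adjusted p = 5.62e-18). In shAnxa2 cells Furin fell from 139.2 ± 0.246 to 67.8 ± 3.16 CPM (log2 fold change -1.04, edgeR adjusted p = 5.06e-14). Nrros, which anchors latent TGF-β1 on microglia, fell in shCtrl cells from 236.6 ± 4.65 to 192.7 ± 7.44 CPM and rose in shAnxa2 cells from 176.1 ± 4.54 to 226.0 ± 4.72 CPM (edgeR adjusted p = 4.60e-06 and 5.33e-07). Itgav, the α chain of integrins that release active TGF-β, fell in shCtrl cells (log2 fold change -0.57, edgeR adjusted p = 5.72e-10) and had a log2 fold change of 0.09 in shAnxa2 cells (95% interval -0.01 to 0.20). The Itgav value in shAnxa2 cells passed only without treated shAnxa2 replicate 1 (edgeR adjusted p = 0.0343). The latent TGF-β binding protein genes were low, and Ltbp2 and Ltbp3 were higher in untreated shAnxa2 than untreated shCtrl cells (log2 fold changes 0.96 and 1.25, edgeR adjusted p = 0.0121 and 0.00437). The Ltbp2 difference did not pass without untreated shCtrl replicate 1 (adjusted p = 0.0553) or untreated shAnxa2 replicate 1 (0.0599) or 2 (0.0647).

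Bmper is a secreted protein that binds BMPs outside the cell. Bmper (ENSMUSG00000031963, chr9:23134372-23396496, plus strand, mm39) gave 69, 79 and 59 reads in untreated shCtrl cells (2.88, 2.90 and 2.17 CPM) and 13, 9 and 11 reads after OGD/R (0.509, 0.344 and 0.564 CPM). In shAnxa2 cells Bmper gave 44, 43 and 63 reads without OGD/R (2.15, 2.07 and 2.50 CPM) and 78, 127 and 59 reads after it (3.98, 5.05 and 2.86 CPM). The 3 shCtrl libraries after OGD/R were below all 9 others, and the untreated groups of the lines overlapped. Bmper was 5.65-fold lower after OGD/R in shCtrl cells (log2 fold change -2.50, SE 0.292) and 1.77-fold higher in shAnxa2 cells (log2 fold change 0.83, SE 0.212). After OGD/R the shAnxa2 cells held 8.54-fold more Bmper RNA than the shCtrl cells (log2 fold change 3.09, SE 0.279), against a log2 fold change of -0.23 (SE 0.219) without OGD/R. The latter was -0.15 without untreated shCtrl replicate 2 and -0.35 without untreated shCtrl replicate 3. Bmper ranked 13 of 11626 genes by the size of its decrease in the shCtrl line. It was chosen with this decrease known and had few reads after OGD/R, so nothing is read from the rank.

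Bmper takes its name from endothelial cells. The summed level of endothelial markers, nearly all of it Kdr, was lowest in OGD/R-treated shCtrl cells and highest in OGD/R-treated shAnxa2 cells. The summed level of the 5 endothelial markers was 167.4 to 170.5 CPM in untreated shCtrl cells, 61.3 to 68.1 CPM in shCtrl cells after OGD/R, 116.4 to 123.9 CPM in untreated shAnxa2 cells and 226.9 to 228.2 CPM in shAnxa2 cells after OGD/R. Nearly all of it was Kdr, a VEGF receptor gene (167 ± 1.81 CPM in untreated shCtrl cells). Cdh5 followed at 1.21 ± 0.0693 CPM, Pecam1, Cldn5 and Tek were at 0.455 CPM or less in every group mean, and none of the 5 was at 0 in all libraries. After OGD/R, Kdr and Cdh5 fell in shCtrl cells (log2 fold changes -1.38 and -2.49) and rose in shAnxa2 cells (0.93 and 1.62). Pecam1 lay the other way, with log2 fold changes of 0.61 and -0.66, and passed in neither line. Cldn5 and Tek did not pass the filter. Over all genes tested, 82.0% had OGD/R changes of opposite sign in the lines. The part of these 5 markers in the Bmper difference was not tested.

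Of the other 15 extracellular antagonists listed, 3 passed the filter. Twsg1, a BMP-binding partner of chordin, rose in shCtrl cells after OGD/R and fell in shAnxa2 cells (log2 fold changes 0.20 and -0.21, edgeR adjusted p = 0.00213 and 0.00203). Dand5 rose in shCtrl cells (log2 fold change 0.44, edgeR adjusted p = 0.00595). Nbl1, a BMP antagonist of the DAN family, rose in shAnxa2 cells from 0.392 ± 0.149 to 0.942 ± 0.260 CPM (log2 fold change 1.28, edgeR adjusted p = 0.00749), but not past the threshold without treated shAnxa2 replicate 2 (adjusted p = 0.0649).

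The TGF-β receptor genes moved in opposite directions. Tgfbr1 (ENSMUSG00000007613, chr4:47353222-47414931, plus strand, mm39), the type I receptor, gave 55.6, 52.7 and 53.0 CPM in untreated shCtrl cells and 43.2, 42.3 and 40.7 CPM after OGD/R. In shAnxa2 cells Tgfbr1 gave 48.3, 49.3 and 44.8 CPM without OGD/R and 60.6, 60.6 and 57.1 CPM after it. The 4 groups of Tgfbr1 did not overlap, in the order OGD/R-treated shCtrl, untreated shAnxa2, untreated shCtrl and OGD/R-treated shAnxa2 from the lowest. Its log2 fold change after OGD/R was -0.35 (SE 0.0571) in shCtrl cells and 0.33 (SE 0.0572) in shAnxa2 cells.

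Tgfbr2 (ENSMUSG00000032440, chr9:115913361-116004428, minus strand, mm39), the type II receptor that binds the ligand, had means of 87.4 ± 7.20 CPM in untreated shCtrl, 98.1 ± 7.18 CPM in OGD/R-treated shCtrl, 81.0 ± 4.98 CPM in untreated shAnxa2 and 72.1 ± 2.61 CPM in OGD/R-treated shAnxa2 cells (SD, n = 3). Neighbouring groups overlapped, except that the OGD/R-treated shAnxa2 libraries were below the other 9. The log2 fold change of Tgfbr2 was 0.17 (SE 0.0622) in shCtrl cells and -0.17 (SE 0.0642) in shAnxa2 cells, and -0.45 (SE 0.0634) between the lines after OGD/R. Per kb of exon, the ratio of Tgfbr1 to Tgfbr2 was 0.774 ± 0.0396 in untreated shCtrl, 0.538 ± 0.0281 in OGD/R-treated shCtrl, 0.735 ± 0.00949 in untreated shAnxa2 and 1.03 ± 0.0593 in OGD/R-treated shAnxa2 cells. The OGD/R-treated groups of this ratio lay on either side of the untreated ones, which overlapped.

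Among the other receptors, 4 of 6 type I and 4 of 4 type II genes passed the filter, and 1 read at most was seen for Bmpr1b and none for Acvr1c. Bmpr1a, a type I BMP receptor and per length the most abundant receptor, fell in shCtrl cells from 126.0 ± 1.64 to 91.1 ± 1.30 CPM (log2 fold change -0.47, edgeR adjusted p = 2.74e-09). In shAnxa2 cells Bmpr1a rose from 126.4 ± 0.913 to 143 ± 6.38 CPM (log2 fold change 0.18, edgeR adjusted p = 0.00124), and the untreated lines had a log2 fold change of 0.01 (SE 0.0444). Acvr1, another type I receptor for BMPs, rose in shAnxa2 cells (log2 fold change 0.71, edgeR adjusted p = 0.00241). Its log2 fold change of -0.39 in shCtrl cells lay at the threshold (edgeR adjusted p = 0.0478) and missed it without any 1 of 9 libraries, among them all 3 treated shCtrl libraries (adjusted p of 0.0581, 0.106 and 0.115) and untreated shCtrl replicates 2 and 3 (0.103 and 0.188). It also missed it with the replicate number as a block (0.0540), with DESeq2 (0.0629) and with a filter at 1 CPM (0.0513). Acvr1b, an activin receptor that feeds Smad2 and Smad3, rose in shCtrl cells and fell in shAnxa2 cells, with log2 fold changes of 0.35 and -0.29 (edgeR adjusted p = 5.33e-05 and 0.00113). Acvrl1, a type I receptor known from endothelium, was lower in untreated shAnxa2 than untreated shCtrl cells (log2 fold change -0.25, edgeR adjusted p = 0.00561), but not past the threshold without untreated shCtrl replicate 3 (adjusted p = 0.0615).

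Of the type II receptors, Bmpr2 was lower in the shAnxa2 than the shCtrl line without and after OGD/R (log2 fold changes -0.25 and -0.34, edgeR adjusted p = 0.000186 and 1.80e-06). So was Acvr2b (log2 fold changes -0.38 and -0.60, edgeR adjusted p = 0.0214 and 0.000675). The Acvr2b difference without OGD/R did not pass without untreated shAnxa2 replicate 1 (adjusted p = 0.127) or untreated shCtrl replicate 2 (0.0961). Acvr2a and Amhr2 passed for OGD/R in shAnxa2 cells (log2 fold changes 0.30 and -0.28, edgeR adjusted p = 0.0171 and 0.0380). Acvr2a did not pass without untreated shAnxa2 replicate 1 (adjusted p = 0.0549) or treated replicate 2 (0.0919), and Amhr2 did not pass without untreated shAnxa2 replicate 2 (0.0909) or 3 (0.0880) or treated shAnxa2 replicate 1 (0.132) or 2 (0.10). Bambi, a decoy receptor without a kinase domain and a known target of the pathway, fell in shCtrl cells from 3.89 ± 0.379 to 2.40 ± 0.315 CPM (log2 fold change -0.70, edgeR adjusted p = 0.00377). In shAnxa2 cells Bambi rose from 0.990 ± 0.438 to 2.29 ± 0.357 CPM (log2 fold change 1.23, edgeR adjusted p = 0.000310). The co-receptor genes Eng and Rgmb had log2 fold changes between -0.52 and 0.29 in the 4 comparisons.

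Smad3 carries the TGF-β signal to the nucleus. Smad3 (ENSMUSG00000032402, chr9:63554049-63665276, minus strand, mm39) gave 32.7, 31.3 and 31.1 CPM in untreated shCtrl cells and 46.2, 41.5 and 42.6 CPM after OGD/R. In shAnxa2 cells Smad3 gave 30.9, 29.2 and 30.5 CPM without OGD/R and 25.3, 25.6 and 30.0 CPM after it. The 3 shCtrl libraries after OGD/R were above all 9 others, and the 2 groups of shAnxa2 libraries overlapped. The log2 fold change of Smad3 was 0.46 (SE 0.0694) in shCtrl cells, -0.16 (SE 0.0737) in shAnxa2 cells and -0.69 (SE 0.0715) between the lines after OGD/R. Without treated shAnxa2 replicate 3, the highest of its group, the last pair of values became -0.25 and -0.78. Among the other Smads that carry the signal, Smad1, Smad2 and Smad5 had absolute log2 fold changes of at most 0.13 in the 4 comparisons, and none passed with all 12 libraries. The change of Smad1 in shCtrl cells (log2 fold change 0.13, edgeR adjusted p = 0.0548) lay near the threshold and passed without any 1 of 5 libraries (adjusted p from 0.0351 to 0.0482), and that of Smad2 passed without untreated shCtrl replicate 2 (0.0387). Smad4, the shared partner, was lower in the shAnxa2 than the shCtrl line without OGD/R (log2 fold change -0.29, edgeR adjusted p = 0.00818) and after it (log2 fold change -0.36, edgeR adjusted p = 0.00132), and Smad9 gave at most 1 read. The first of these Smad4 differences did not pass without replicate 2 of untreated shCtrl (adjusted p = 0.0961) or of untreated shAnxa2 cells (0.0641).

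The inhibitory Smads lay opposite to Smad3. Smad7 (ENSMUSG00000025880, chr18:75500600-75529006, plus strand, mm39), which blocks Tgfbr1 and recruits ubiquitin ligases to it, gave 10.9, 12.7 and 11.7 CPM in untreated shCtrl cells and 5.40, 7.67 and 7.17 CPM after OGD/R. In shAnxa2 cells Smad7 gave 9.68, 9.34 and 9.33 CPM without OGD/R and 15.0, 13.6 and 15.1 CPM after it. No groups of Smad7 overlapped, and they stood in the same order as those of Tgfbr1. Smad7 was 1.75-fold lower after OGD/R in shCtrl cells (log2 fold change -0.81, SE 0.116) and 1.54-fold higher in shAnxa2 cells (log2 fold change 0.62, SE 0.112). After OGD/R it was 2.16-fold higher in the shAnxa2 than the shCtrl line (log2 fold change 1.11, SE 0.116). Without treated shCtrl replicate 1, the lowest library, these log2 fold changes were -0.65 in shCtrl cells and 0.96 between the lines.

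Smad6 (ENSMUSG00000036867, chr9:63860358-63929341, minus strand, mm39), which acts mainly on BMP signals, had means of 5.84 ± 0.213 CPM in untreated shCtrl, 4.74 ± 0.398 CPM in OGD/R-treated shCtrl, 5.65 ± 0.728 CPM in untreated shAnxa2 and 6.57 ± 0.612 CPM in OGD/R-treated shAnxa2 cells. Its log2 fold changes after OGD/R were -0.29 (SE 0.133) in shCtrl and 0.23 (SE 0.132) in shAnxa2 cells, and the shAnxa2 groups overlapped. The latter was 0.15 without untreated shAnxa2 replicate 3 and 0.14 without treated shAnxa2 replicate 2. After OGD/R the lines did not overlap (log2 fold change 0.47, SE 0.134). Per kb of exon, the ratio of Smad7 to Smad3 was 0.455 ± 0.0451 in untreated shCtrl, 0.192 ± 0.0435 in OGD/R-treated shCtrl, 0.384 ± 0.00869 in untreated shAnxa2 and 0.665 ± 0.0551 in OGD/R-treated shAnxa2 cells, with no overlap between groups.

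Smad-binding proteins and co-repressors were measured for 11 of 12 listed genes. Ski and Skil (SnoN), co-repressors that bind Smads, both fell in shCtrl cells after OGD/R and rose in shAnxa2 cells. Skil went from 71.3 ± 5.36 to 49.0 ± 1.25 CPM in shCtrl cells (log2 fold change -0.54, edgeR adjusted p = 3.14e-08) and from 39.95 ± 0.421 to 57.3 ± 3.20 CPM in shAnxa2 cells (log2 fold change 0.52, edgeR adjusted p = 1.94e-07). Ski had log2 fold changes of -0.36 and 0.36 (edgeR adjusted p = 8.84e-06 and 1.80e-05). Nedd4l, a ubiquitin ligase that acts on phosphorylated Smads, rose in shCtrl cells (log2 fold change 0.31, edgeR adjusted p = 0.00411) and fell in shAnxa2 cells (log2 fold change -0.51, edgeR adjusted p = 4.22e-05). Smurf2 and Rnf111 passed in none of the 4 comparisons, and Pmepa1 had no count in any library.

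Id proteins are dominant-negative partners of E proteins. Id3 (ENSMUSG00000007872, chr4:135870808-135873066, plus strand, mm39) gave 58.8, 47.0 and 61.0 CPM in untreated shCtrl cells and 16.0, 16.9 and 15.0 CPM after OGD/R. In shAnxa2 cells Id3 gave 14.7, 12.9 and 16.0 CPM without OGD/R and 36.0, 32.7 and 38.3 CPM after it. OGD/R-treated shCtrl and untreated shAnxa2 libraries overlapped at the bottom, the OGD/R-treated shAnxa2 libraries lay above them, and the untreated shCtrl libraries were the highest. Id3 was 3.48-fold lower after OGD/R in shCtrl cells (log2 fold change -1.80, SE 0.0938) and 2.44-fold higher in shAnxa2 cells (log2 fold change 1.29, SE 0.0988). The lines differed by a log2 fold change of -1.93 (SE 0.0956) without OGD/R and 1.16 (SE 0.0969) after it.

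Id1 (ENSMUSG00000042745, chr2:152578171-152579330, plus strand, mm39) was close to the limit of these libraries. It gave 20, 21 and 27 reads in untreated shCtrl cells and 3, 2 and 1 reads after OGD/R. In shAnxa2 cells Id1 gave 6, 0 and 8 reads without OGD/R and 12, 22 and 8 reads after it. The untreated shCtrl and OGD/R-treated shAnxa2 libraries held the most and overlapped in CPM, and the other 2 groups overlapped at the bottom. Id1 passed the filter only through 3 untreated shCtrl and 2 OGD/R-treated shAnxa2 libraries, so it had to differ between groups to be included. Summed over libraries and divided by depth, Id1 was 10.3-fold lower after OGD/R in shCtrl cells (95% interval 4.48 to 29.0, exact and for counting error only) and 2.99-fold higher in shAnxa2 cells (95% interval 1.60 to 5.94). The fitted log2 fold change of Id1 in shAnxa2 cells was 1.58, and 1.05 without untreated shAnxa2 replicate 2, where no read was counted. Without OGD/R it was 4.11-fold lower in the shAnxa2 than the shCtrl line (95% interval 2.29 to 7.91), and after OGD/R 7.49-fold higher (95% interval 3.17 to 21.6). Id1 was chosen with these levels known, so its intervals are no test.

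Id2 (ENSMUSG00000020644, chr12:25143798-25147139, minus strand, mm39) did not follow Id1 and Id3. Id2 gave 62.0, 68.6 and 62.5 CPM in untreated shCtrl cells and 37.8, 52.0 and 47.4 CPM after OGD/R. In shAnxa2 cells Id2 gave 43.5, 36.4 and 38.5 CPM without OGD/R and 35.3, 37.4 and 39.0 CPM after it. The untreated shCtrl libraries were above the other 9, and those 9 overlapped from group to group. The log2 fold change of Id2 was -0.49 (SE 0.0843) in shCtrl cells and -0.08 (SE 0.0896) in shAnxa2 cells. The latter lay between -0.01 and -0.14 with single libraries left out. The ratio of Id3 to Id2 per kb of exon was 1.19 ± 0.219 in untreated shCtrl, 0.482 ± 0.0806 in OGD/R-treated shCtrl, 0.503 ± 0.0554 in untreated shAnxa2 and 1.31 ± 0.104 in OGD/R-treated shAnxa2 cells, and Id4 had no count in any library.

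Summed per kb of exon, Id1, Id2 and Id3 came to 58.2 ± 2.84 in untreated shCtrl, 27.7 ± 3.15 in OGD/R-treated shCtrl, 24.5 ± 2.11 in untreated shAnxa2 and 35.7 ± 1.78 CPM per kb in OGD/R-treated shAnxa2 cells. Only the OGD/R-treated shCtrl and untreated shAnxa2 groups overlapped. The E protein genes Tcf3, Tcf4 and Tcf12 together came to 37.1 ± 0.869, 40.1 ± 0.916, 34.4 ± 1.63 and 33.7 ± 0.805 CPM per kb in the same groups. The summed Id level was above the summed E protein level in untreated shCtrl cells, below it in OGD/R-treated shCtrl and untreated shAnxa2 cells, and near it in OGD/R-treated shAnxa2 cells. These levels divide by the union of all exons of a gene (27382 bases for Tcf4, 15529 for Tcf12, 1160 for Id1 and 1791 for Id3). The order of the 2 sums depends on these lengths, and other lengths were not tried. Of the 3 genes, Tcf4 rose in shCtrl cells from 52.4 ± 2.44 to 79.3 ± 5.56 CPM (log2 fold change 0.59, edgeR adjusted p = 3.31e-09) and fell in shAnxa2 cells from 67.5 ± 2.31 to 53.0 ± 1.83 CPM (log2 fold change -0.35, edgeR adjusted p = 2.71e-05). Tcf3 was lower in the shAnxa2 than the shCtrl line after OGD/R (log2 fold change -0.28, edgeR adjusted p = 8.35e-05). The other log2 fold changes of Tcf3 and all those of Tcf12 lay between -0.14 and 0.11.

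The promoters of 4 of these genes are shown because Id2, Id3 and Smad6 are direct Smad targets in other cells and Bmper had the largest fitted fold change between the lines after OGD/R of the 10 genes. Each window holds 250 bases before and 20 bases after the RefSeq transcript start on GRCm38.p6, 5′ to 3′ on the strand of the gene, and capitals mark a match, on either strand, to the Smad palindrome GTCTAGAC, the GC-rich motif GGCGCC or the Smad box CAGAC.
Smad6, chr9:64022040-64022309, minus strand: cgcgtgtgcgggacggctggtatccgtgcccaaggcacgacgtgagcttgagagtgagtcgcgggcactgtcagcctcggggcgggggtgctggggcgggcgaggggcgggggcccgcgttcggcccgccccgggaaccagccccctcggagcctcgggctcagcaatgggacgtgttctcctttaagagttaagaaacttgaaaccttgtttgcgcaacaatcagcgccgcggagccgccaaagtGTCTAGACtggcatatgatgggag
Id2, chr12:25096073-25096342, minus strand: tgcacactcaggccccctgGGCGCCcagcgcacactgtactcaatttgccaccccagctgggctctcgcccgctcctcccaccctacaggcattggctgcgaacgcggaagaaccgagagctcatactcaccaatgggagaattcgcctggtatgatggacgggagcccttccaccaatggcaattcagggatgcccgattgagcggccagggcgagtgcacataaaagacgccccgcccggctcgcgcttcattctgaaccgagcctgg
Id3, chr4:136143572-136143841, plus strand: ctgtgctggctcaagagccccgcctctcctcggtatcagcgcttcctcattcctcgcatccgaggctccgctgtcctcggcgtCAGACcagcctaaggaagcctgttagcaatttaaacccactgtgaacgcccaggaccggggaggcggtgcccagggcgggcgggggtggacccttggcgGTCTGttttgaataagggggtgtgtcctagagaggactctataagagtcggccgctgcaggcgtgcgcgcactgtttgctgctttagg
Bmper, chr9:23222826-23223095, plus strand: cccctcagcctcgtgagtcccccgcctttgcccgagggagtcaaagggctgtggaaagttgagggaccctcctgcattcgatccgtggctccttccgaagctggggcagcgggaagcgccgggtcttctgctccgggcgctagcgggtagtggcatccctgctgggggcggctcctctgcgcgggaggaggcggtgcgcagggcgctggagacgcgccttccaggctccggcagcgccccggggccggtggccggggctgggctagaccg

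Smad6 held the palindrome GTCTAGAC from base -4 to base 4, counted from 1 at the first transcribed base with no base 0, a motif found in 0.183% of 32851 mouse promoter windows of the same length. The window's end was set after this match, which spans the start, had been seen, so nothing is read from its rarity. Id2 held GGCGCC from -231 to -226 (10.4% of all windows), and Id3 held CAGAC from -167 to -163 and, on the other strand, from -68 to -64 (45.4% of all windows). Bmper held none of the 3 motifs. Of the 10 genes, 8 had a window used, and the window of Tgfbr2 also held CAGAC. Tgfbr1 had 2 windows, 1 with GGCGCC and 1 with CAGAC, while those of Smad3 and Tgfb1 held none. These are matches of letters in a short window and say nothing about binding in these cells.

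**Figure D3:**
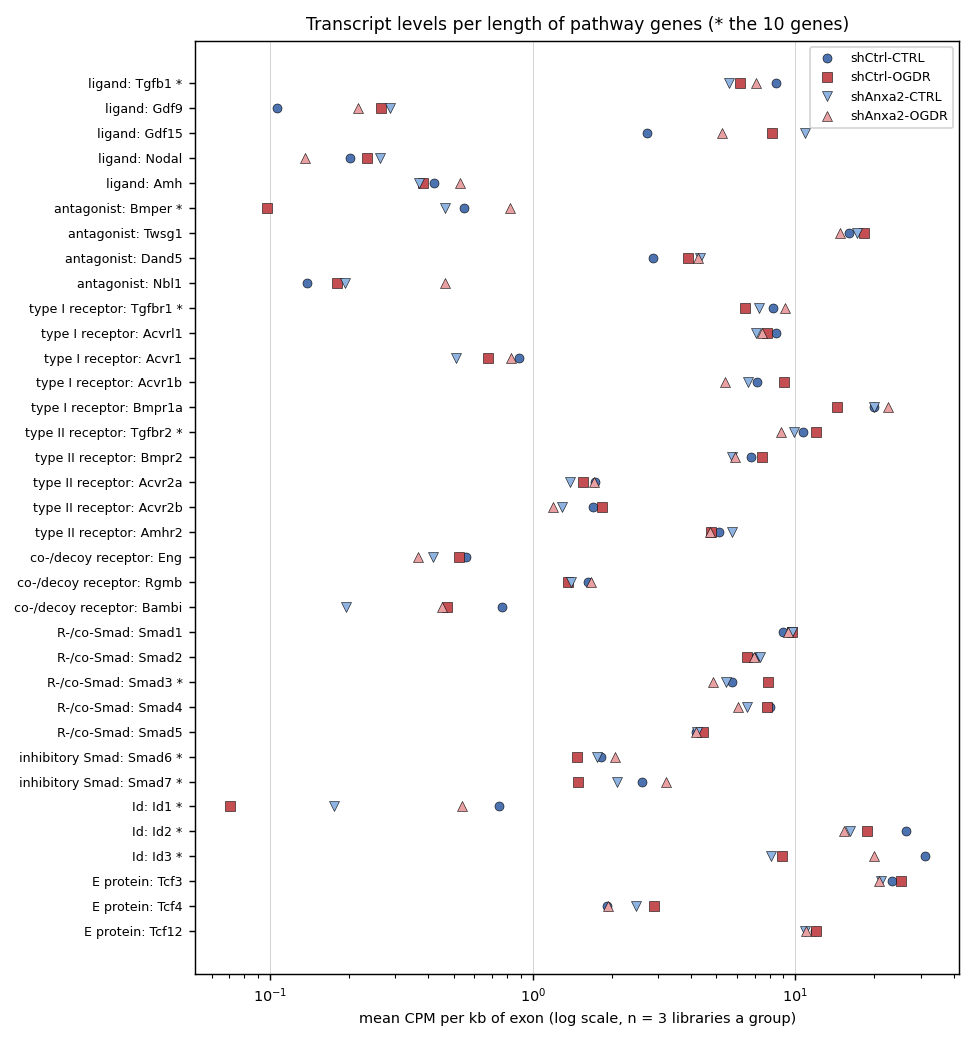
Mean level per kb of exon (horizontal axis, log scale, n = 3 libraries a group) of the pathway's ligands, antagonists, receptors, Smads, Id proteins and E proteins that passed the filter, with a star on the 10 genes and a symbol for each group. Id2 and Id3 stand at the right, Id1 and Bmper at the left with the widest spread between groups.

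The spread over groups differed greatly among the 10 genes. The highest group mean was 10.6-fold the lowest for Id1, 8.40-fold for Bmper, 3.83-fold for Id3 and 2.16-fold for Smad7, and at most 1.73-fold for the other 6. The highest mean was in untreated shCtrl cells for 4 genes (Tgfb1, Id1, Id2 and Id3), in OGD/R-treated shAnxa2 cells for 4 (Bmper, Tgfbr1, Smad6 and Smad7) and in OGD/R-treated shCtrl cells for 2 (Tgfbr2 and Smad3). The lowest mean was in OGD/R-treated shCtrl cells for Bmper, Tgfbr1, Smad6, Smad7 and Id1. As a distance over the 10 genes, untreated shCtrl and OGD/R-treated shAnxa2 libraries were 0.48 apart, against 1.27 for untreated and treated shCtrl libraries and 1.26 between the lines after OGD/R. Libraries of a group lay 0.184 apart in untreated shCtrl cells and up to 0.489 apart in untreated shAnxa2 cells. The 10 genes were chosen on these levels, so nothing is read from these distances.

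The OGD/R change of shAnxa2 cells minus that of shCtrl cells (log2) was 4.86 (SE 0.824) for Id1, 3.32 (SE 0.363) for Bmper, 3.09 (SE 0.136) for Id3, 1.43 (SE 0.161) for Smad7, 0.80 (SE 0.113) for Tgfb1, 0.68 (SE 0.0808) for Tgfbr1, 0.52 (SE 0.188) for Smad6 and 0.41 (SE 0.123) for Id2. It was -0.62 (SE 0.101) for Smad3 and -0.34 (SE 0.0894) for Tgfbr2. The OGD/R change had opposite signs in the lines for 9 of the 10 genes, for 37 of the other 46 pathway genes tested and for 82.0% of all genes tested. These 2 comparisons share no libraries. Because the 10 genes were chosen with their levels known, nothing is read from their share of opposite signs. Opposite signs were common in the whole table, at 98.6% of the 5239 genes that passed in both lines, where 16 of 16 such pathway genes beside the 10 had them.

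**Figure D4:**
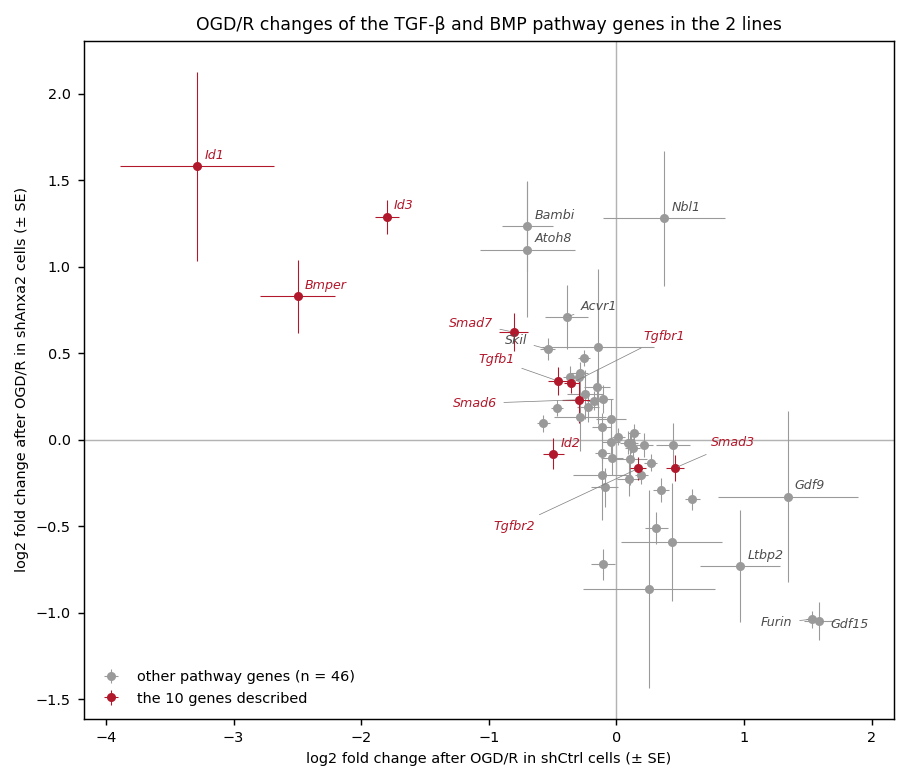
Log2 fold change after OGD/R in shCtrl cells (horizontal axis) against that in shAnxa2 cells (vertical axis), with standard errors, for the 10 genes (red) and 46 other genes of the pathway list (grey). Id1, Bmper, Id3 and Smad7 lie at the upper left, and Gdf15 and Furin at the lower right.

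The other genes of the pathway were called in both directions. Of 106 listed genes beside the 10, 46 passed the filter. After OGD/R, 12 rose and 11 fell in shCtrl cells (23 of 46, against 63.4% of all genes, 32.4% higher and 31.0% lower), and 13 rose and 9 fell in shAnxa2 cells (22 of 46, against 55.0% of all genes, 28.2% higher and 26.8% lower). In shAnxa2 cells 10 were higher and 17 lower than in shCtrl cells without OGD/R (27 of 46, against 59.2% of all genes, 29.5% higher and 29.7% lower), and 12 were higher and 12 lower after it (24 of 46, against 67.9% of all genes, 33.8% higher and 34.2% lower). The median log2 fold change of the 46 genes was -0.0439, -0.0154, -0.0755 and -0.00156 in these 4 comparisons. The 10 genes had medians of -0.477, 0.332, -0.274 and 0.483, but they were chosen with their levels in these groups known. Nothing is therefore read from their medians being farther from those of the other genes. The difference between the lines' OGD/R changes passed for 28 of the 46 genes (15 higher, 13 lower), against 70.0% of all genes (34.9% higher, 35.1% lower).

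Of 5 other induced targets tested, Junb and Tsc22d1 fell in shCtrl cells and rose in shAnxa2 cells after OGD/R. Junb went from 213.0 ± 2.31 to 178.4 ± 8.13 CPM in shCtrl cells (log2 fold change -0.26, edgeR adjusted p = 6.14e-05) and from 204.6 ± 4.98 to 283.6 ± 12.4 CPM in shAnxa2 cells (log2 fold change 0.47, edgeR adjusted p = 1.71e-08). Atoh8, a BMP target found here at a low level, passed in shAnxa2 cells after OGD/R (log2 fold change 1.10, edgeR adjusted p = 0.0206), but not without treated replicate 1 (adjusted p = 0.0850) or untreated replicate 1 (0.0553) or 2 (0.0978) of that line.

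Of 9 genes that depend on TGF-β in brain microglia, 6 passed the filter. Tmem119 fell in shCtrl cells after OGD/R from 4.83 ± 0.0246 to 1.87 ± 0.475 CPM (log2 fold change -1.40, edgeR adjusted p = 6.77e-08) and rose in shAnxa2 cells from 5.63 ± 0.377 to 10.3 ± 0.450 CPM (log2 fold change 0.87, edgeR adjusted p = 4.03e-06). Cx3cr1, the fractalkine receptor, did the reverse, with log2 fold changes of 0.50 and -0.94 (edgeR adjusted p = 0.0102 and 4.02e-05). The change of Cx3cr1 in shCtrl cells did not pass without treated replicate 2 (edgeR adjusted p = 0.134). Mertk, a receptor for engulfing dying cells, was lower in the shAnxa2 than the shCtrl line after OGD/R (log2 fold change -1.01, edgeR adjusted p = 9.61e-08), P2ry12 and Olfml3 did not pass for OGD/R in either line, and Sall1 had no count in any library.

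The genes of at least 1 CPM whose pattern over the 12 libraries was nearest to 4 of the 10 were named by the same root mean square distance, taken over libraries after each gene's mean was subtracted, among 10740 genes. For Bmper they were Dusp6 (0.370), Ccl2 (0.391) and Draxin (0.402), where the spread of Bmper itself was 1.09. For Id1 they were Dmpk (0.531), Id3 (0.586) and Nanos1 (0.589), with a spread of 1.13. For Tgfbr1 they were Tnpo1 (0.0342), Ahctf1 (0.0382) and Cdk2 (0.0430), and for Smad7 Nabp1 (0.104), Srprb (0.107) and Tle1 (0.109), with spreads of 0.192 and 0.429. Id1 and Id3 were both picked with their levels known, so nothing is read from Id3 being among the nearest genes to Id1.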

How the data were processed

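RNA of BV2 cells was sequenced from NEBNext libraries, 3 for each of 4 groups taken from the sample titles. The values used are the raw read counts that the authors deposited, 1 per library for each of 21834 protein-coding genes. The submitters' processing notes list HISAT2 2.0.4 and the build mm39, while the study's methods, written for hippocampi, name Tophat 2 and HTSeq 0.6.1p2, and which of these made the counts is not given in the sources used here. The 12 further per-sample columns, normalized by the authors with DESeq2, were not used. The strand setting of the counting and the treatment of reads shared by overlapping genes are not given in the sources used here. The labels and the study's methods give different reoxygenation times, and the time in the labels is printed.

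The 11626 genes that reached 0.5 CPM in 3 or more libraries were fitted in edgeR 4.0.16 (R 4.3.3) with TMM scaling and 1 quasi-likelihood model of 4 group means over the 12 libraries, with Benjamini-Hochberg adjustment over all genes tested and a threshold of 0.05. An SE is the absolute log2 fold change over the root of its F value. CPM values use the TMM-scaled totals, which ran from 19521877 to 27288843 reads before scaling. CPM per kb divides by the union exon length of GENCODE vM21 (GRCm38), matched by gene identifier. Intervals for Id1 are exact, from the summed counts.

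The 10 genes and the lists of pathway genes and markers were chosen with earlier results of these data known, so the 10 genes have no test. The other pathway genes named are, the 5 that rose most and the 5 that fell most among those that passed in each comparison, and the listed receptors, Smads, Id genes and E proteins. Nrros, Twsg1, Dand5, Tsc22d1, Smurf2, Rnf111, Pmepa1, Nodal, Amh, the co-receptors and the single marker genes were named after their values were seen. One pathway gene that the rule would name is not reported here, though the counts include it. Promoter windows came from RefSeq on GRCm38.p6, with 8 of the 10 genes shown or searched. Their end at 20 bases after the start was set after the Smad6 match had been seen. Those of Id1 and Smad7 were not used here.

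The steps were tested on simulated counts for OGD/R in shCtrl cells. Of 200 genes given a change among 11480, 99% were recovered, and 10 of the 208 genes called had been given none. A comparison with no change gave 0 calls. Only genes above a minimum expected count were changed, and all genes were given the same spread. In the data 63.4% of genes passed in this comparison. The simulation did not test so wide a change, or changes in genes with the fewest reads. Alternatives were median-of-ratios scaling, no filter, a filter at 1 CPM, DESeq2 1.42.0, the replicate number as a block, a fit of only the groups compared, and each library left out. Within groups, counts of 2 libraries differed by more than counting error (chi-square per gene from 3.89 to 12.7), so each library was counted once.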

Additional observations from a re-analysis of the deposited data

Results flagged for a closer look

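The OGD/R change differed between the lines, by the edgeR interaction test over all genes, for the 17 genes listed next, all outside the 10. The rule for named pathway genes covers them except Rgmb, a co-receptor that was named after its values were seen. The values are log2 differences, the change in shAnxa2 cells minus the change in shCtrl cells.

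Among secreted factors and the genes that process them, the difference was -2.64 for Gdf15, -2.57 for Furin, -1.70 for Ltbp2, -1.67 for Gdf9 and 0.67 for Itgav. Among receptors it was 1.93 for Bambi, 1.10 for Acvr1, 0.65 for Bmpr1a, 0.50 for Rgmb, 0.45 for Acvr2a and -0.64 for Acvr1b. Among Smad regulators it was 1.06 for Skil, 0.73 for Ski and -0.82 for Nedd4l. The E protein gene Tcf4 had a difference of -0.94. The targets Atoh8 and Junb had differences of 1.80 and 0.73.

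Of the other pathway genes named after their values were seen, 4 also passed, with differences of 0.67 for Tsc22d1, 0.66 for Nrros, -0.40 for Twsg1 and -0.47 for Dand5. That of Dand5 did not pass without replicate 1 of untreated shCtrl (edgeR adjusted p = 0.0675), treated shCtrl (0.0741) or untreated shAnxa2 cells (0.0811) or without treated shAnxa2 replicate 2 (0.0547).

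The differences of Gdf9 and Rgmb lay near the threshold (edgeR adjusted p = 0.0480 and 0.0288). Leaving out single libraries ended the call of Gdf9 for untreated shCtrl replicates 1 and 3 (adjusted p of 0.0752 and 0.105), treated shCtrl replicate 2 (0.219), untreated shAnxa2 replicates 1 and 2 (0.0922 and 0.0800) and treated shAnxa2 replicate 1 (0.108), and DESeq2 gave 0.0591 with all libraries. It ended that of Rgmb for untreated shCtrl replicates 2 and 3 (0.0893 and 0.114), treated shCtrl replicates 2 and 3 (0.0509 and 0.0688), untreated shAnxa2 replicate 3 (0.0740) and treated shAnxa2 replicates 2 and 3 (0.0777 and 0.0922). The other 15 of the 17 passed with any single library left out. Over all genes tested, 70.0% passed this interaction test.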

How the results depend on the processing

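The number of other pathway genes that passed was recomputed 267 times, in all and by direction, and each count stayed within 1.5 times its value above. For OGD/R in shCtrl cells, OGD/R in shAnxa2 cells, the untreated lines, the treated lines and the interaction, it was 23, 22, 27, 24 and 28 with all libraries. With single libraries left out it was 21 to 24, 19 to 23, 21 to 27, 21 to 25 and 24 to 28. With the replicate number as a block it was 22, 22, 26, 24 and 28. Over all settings other than a left-out library the ranges were 22 to 25, 20 to 23, 24 to 27, 22 to 26 and 27 to 30.

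The correlations showed no clear pairing of libraries by replicate number, and a shared day or batch was not tested. Of 18 pairs with the same number, 1 had deviations from the group means that correlated at over 0.1 (r from -0.0513 to 0.135), and no source says that a number marks a shared day or batch.

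Of 883 recomputed log2 fold changes of the 10 genes, 877 lay within 1 SD between replicates of the reported value, and the other 6 are those of Smad7 without treated shCtrl replicate 1 and of Smad3 without treated shAnxa2 replicate 3. For Smad7 the interaction went from 1.43 to 1.27, and for Smad3 from -0.62 to -0.72. The interaction of Id2 was 0.27 without treated shCtrl replicate 1, against 0.41. Of 6071 values recomputed for other listed genes, 5840 kept their direction and side of the threshold, 153 no longer passed, 78 passed newly and 0 that passed reversed. The cause of these moves was not tested. Id1 had at most 27 reads in a library, so its values carry a large counting error.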
